A study of Homo sapiens with 12 samples.

Results

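The genes described here are 46 genes of DNA replication and mitosis, listed by symbol and matched to their Ensembl identifiers among the 61552 genes of a counts table of mRNA sequencing. They comprise 10 genes of origin licensing, 6 of helicase activation, 13 of the replication fork, 4 of nucleotide supply, E2F1 and E2F2 with UHRF1, and 10 of mitosis. All 46 passed the filter on low counts that left 20304 genes for testing. Human neuroblastoma cell lines of wild-type genotype, labelled SK-N-BE(2) and SK-N-AS, were cultured overnight with ML210 or as controls, which gave 4 groups of 3 libraries, each group with a library of batch 1, 2 and 3. Neuroblastoma is a childhood tumour of the sympathetic nervous system, and ML210 inhibits GPX4, an enzyme that reduces lipid peroxides in membranes and whose loss leads to ferroptosis. The series calls SK-N-BE(2) MYCN-amplified and SK-N-AS non-amplified. Each status is thus represented by 1 line, so effects of MYCN status and of the line cannot be told apart. Neither the ML210 dose nor the content of the control cultures is given in the labels.

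Before S phase, the origin recognition complex (ORC1 to ORC6), CDC6 and CDT1 load the MCM2-7 ring onto DNA, and CDC45 and GINS later turn that ring into the active helicase. Polymerases, the clamp PCNA and its loader RFC then copy DNA from deoxynucleotides that ribonucleotide reductase and thymidylate synthase supply, and cyclin-dependent and Aurora kinases drive the mitosis that follows. Transcription of these genes rises in dividing cells. E2F factors act mostly on the replication genes before and during S phase, and the MuvB complex with MYBL2 and FOXM1 acts on the mitotic genes in G2. In bulk samples, fewer dividing cells and less RNA per cell cannot be told apart.

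MYCN, the oncogene that the lines are meant to differ in, contradicted the labels in each of the 12 libraries. It averaged 0.154 CPM (reads scaled to a common TMM-adjusted library size) in SK-N-BE(2)-labelled ML210 libraries and 0.166 CPM in SK-N-BE(2)-labelled controls, against 3855 CPM in SK-N-AS-labelled ML210 libraries and 3558 CPM in SK-N-AS-labelled controls. Lines are therefore named here by their labels, and every direction between lines is between labels. GPX4 itself did not pass the test with ML210 under either label (log2 -0.075 with adjusted p 0.667 labelled SK-N-BE(2), log2 -0.12 with adjusted p 0.751 labelled SK-N-AS). Of 12 adrenergic neuroblastoma markers, 11 reached 1 CPM in the SK-N-BE(2)-labelled groups, with sums of 1270 to 1960 CPM, and all 12 did so in the SK-N-AS-labelled groups, with sums of 8590 to 9830 CPM. A list of 8 blood cell markers summed to 163 to 330 CPM under the SK-N-BE(2) label, nearly all of it PTPRC, and to 1.53 to 3.54 CPM under the SK-N-AS label, while HBB was at 0 in all groups. Mesenchymal neuroblastoma markers (10 genes) summed to 2670 to 3410 CPM under the SK-N-BE(2) label and 453 to 529 CPM under the SK-N-AS label. Lists of 8 genes each for epithelial, endothelial and Schwann cells summed to 192 to 296, 1.81 to 3.83 and 2.61 to 3.57 CPM under the SK-N-BE(2) label, and to 10.3 to 16.5, 17.2 to 45.8 and 8.28 to 16.3 CPM under the SK-N-AS label. Counted reads per library ran from 54047293 to 83481963. The part of these differences in the results below was not tested.

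Upstream sequence is shown for 6 members on which the results turn: GINS2, with the largest difference between the line labels, POLA1, TYMS and TOP2A, called lower with ML210 under the SK-N-BE(2) label, and FEN1 and BUB1, called higher under the SK-N-BE(2) label and lower in the mean ML210 response. Each is the 250 bases before the gene's start in RefSeq (GRCh38.p14), read 5′ to 3′ on the gene's strand. The annotation GENCODE 29 places the gene start inside the windows of TYMS, TOP2A and BUB1. For GINS2 and FEN1 it places the start upstream of the window, at chr16:85690073 and chr11:61792637. Those 2 windows thus lie within the gene as GENCODE 29 draws it, and all distances are to the RefSeq start. Capitals mark E2F motifs (TTGGCGC or TTCCCGC), the cell cycle genes homology region or CHR (TTTGAA), the CCAAT box (CCAAT) and the E-box of the MYC family (CACGTG), on either strand. The windows are chr16:85688955-85689204, minus strand (GINS2), chrX:24693668-24693917, plus strand (POLA1), chr18:657403-657652, plus strand (TYMS), chr11:61792661-61792910, plus strand (FEN1), chr17:40417897-40418146, minus strand (TOP2A) and chr2:110678064-110678313, minus strand (BUB1).
GINS2: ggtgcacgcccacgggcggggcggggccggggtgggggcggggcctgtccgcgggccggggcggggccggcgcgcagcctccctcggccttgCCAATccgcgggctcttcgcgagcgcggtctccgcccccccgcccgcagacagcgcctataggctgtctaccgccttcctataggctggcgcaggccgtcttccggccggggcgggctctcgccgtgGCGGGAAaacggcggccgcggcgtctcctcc
POLA1: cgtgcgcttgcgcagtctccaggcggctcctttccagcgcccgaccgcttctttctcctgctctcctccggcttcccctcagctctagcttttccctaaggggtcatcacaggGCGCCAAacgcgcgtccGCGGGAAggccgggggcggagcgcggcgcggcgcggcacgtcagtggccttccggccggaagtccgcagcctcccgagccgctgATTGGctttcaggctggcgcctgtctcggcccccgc
TYMS: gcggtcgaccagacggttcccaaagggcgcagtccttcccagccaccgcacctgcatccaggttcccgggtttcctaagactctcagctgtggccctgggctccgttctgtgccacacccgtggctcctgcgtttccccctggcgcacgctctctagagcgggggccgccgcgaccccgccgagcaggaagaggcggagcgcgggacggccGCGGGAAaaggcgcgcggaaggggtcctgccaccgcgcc
FEN1: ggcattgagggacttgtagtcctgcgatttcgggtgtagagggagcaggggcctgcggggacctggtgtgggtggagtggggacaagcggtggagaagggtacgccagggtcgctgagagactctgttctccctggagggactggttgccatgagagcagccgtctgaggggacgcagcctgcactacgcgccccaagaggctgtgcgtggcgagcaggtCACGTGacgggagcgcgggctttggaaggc
TOP2A: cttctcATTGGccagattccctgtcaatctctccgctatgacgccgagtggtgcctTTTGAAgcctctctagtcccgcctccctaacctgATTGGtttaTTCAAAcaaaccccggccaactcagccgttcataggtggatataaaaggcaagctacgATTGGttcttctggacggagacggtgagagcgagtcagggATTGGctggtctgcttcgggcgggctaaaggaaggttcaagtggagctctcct
BUB1: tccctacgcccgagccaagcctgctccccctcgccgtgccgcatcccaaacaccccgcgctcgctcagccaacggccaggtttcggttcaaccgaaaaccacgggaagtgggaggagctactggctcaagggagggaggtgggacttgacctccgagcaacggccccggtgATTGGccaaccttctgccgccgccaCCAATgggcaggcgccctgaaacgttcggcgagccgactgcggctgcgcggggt

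GINS2, POLA1 and TYMS each carried an E2F motif, at 31, at 137 and 120, and at 39 bases before the start. TOP2A held 2 CHR matches and 4 CCAAT boxes, BUB1 held 2 CCAAT boxes, and FEN1 held an E-box 30 bases before its start. RRM2, called in the same comparison as POLA1, TYMS and TOP2A, is not shown. The first of its 2 windows held 3 CCAAT boxes and no E2F motif. RefSeq gave a window for 41 of the 46 genes, and a gene with several windows was counted if any of them held the motif. An E2F motif stood in 21 of the 41 (51.2%), against 9.4% of all 27305 genes with a window. By role it stood in 5 of 8 licensing genes, 1 of 5 helicase activation genes, 7 of 13 fork genes, 4 of 4 nucleotide supply genes, all 3 of E2F1, E2F2 and UHRF1, and 1 of 8 mitotic genes, the last being CDK1. CHR matches stood in 5 of the 41 (12.2%), against 16.1% of all genes: 4 of the 8 mitotic genes (MKI67, TOP2A, CDK1 and PLK1) and RRM1. CCAAT boxes stood upstream of 8 of 8 mitotic genes and 28 of the 41, against 37.0% of all genes, and E-boxes upstream of 5 of the 41 (MCM2, MCM7, FEN1, CCNB1 and PLK1), against 7.73%. In a few genes, such as ORC1, an E2F motif and a CCAAT box on the other strand share letters, and these were counted for both. These are matches of letters in a window and not measured binding.

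**Figure D1:**
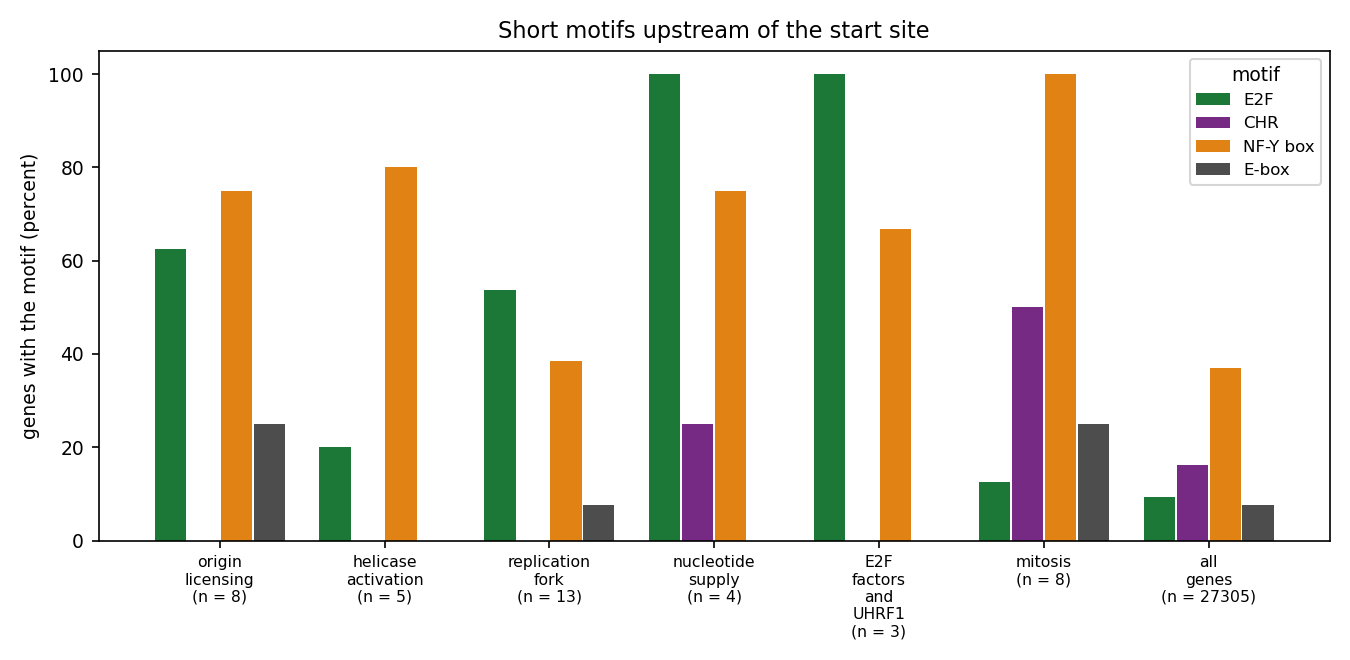
Percent of genes with each short motif in the 250 bases before a RefSeq start, for the 6 roles and for all genes in the promoter table. E2F motifs stand in 5 of 8 licensing, 7 of 13 fork and 4 of 4 nucleotide supply genes, against 9.4% of all genes. In helicase activation and mitosis they stand in 1 gene each, of 5 and of 8. CHR matches stand in 4 of 8 mitotic genes, and CCAAT boxes, drawn as the NF-Y box after the factor that binds them, in 8 of 8.

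The first comparison asks how the line labels differ before treatment. Most replication and mitosis genes were lower in controls labelled SK-N-BE(2) than in controls labelled SK-N-AS: 34 of 46 were called lower and 4 higher, beside 35.2% of all genes tested called lower and 33.9% called higher (69.2% in either direction). The median difference was -0.68 on the log2 scale, against -0.01 over all genes tested, and differences and changes are on this scale throughout. Summed over the 46 genes, 0.646%, 0.631% and 0.619% of counted reads fell on them in SK-N-BE(2)-labelled controls, against 0.905%, 0.891% and 0.896% in SK-N-AS-labelled controls. Every SK-N-BE(2)-labelled control lay below every SK-N-AS-labelled control for 34 members (73.9%, against 37.7% of all genes tested), and above for 7 (15.2%, against 36.3%). The spread among members was wide, with log2 differences running from -3.23 for GINS2 to 0.38 for ORC1.

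In origin licensing, 9 of 10 genes were called lower under the SK-N-BE(2) label and ORC1 was called higher, with a median of -0.94. CDT1, the licensing factor that geminin restrains, stood at 38, 37.5 and 35.4 CPM in SK-N-BE(2)-labelled controls, against 189, 179.6 and 177 CPM in SK-N-AS-labelled controls. MCM5, a subunit of the helicase ring, stood at 109.8, 118 and 111 CPM in SK-N-BE(2)-labelled controls and 470.2, 456 and 455 CPM in SK-N-AS-labelled controls. For both genes the highest SK-N-BE(2)-labelled control lay far below the lowest SK-N-AS-labelled control. The fitted means were 4.92-fold lower under the SK-N-BE(2) label for CDT1 (log2 -2.30, SE 0.0849, adjusted p 3.41e-11) and 4.08-fold lower for MCM5 (log2 -2.03, SE 0.0749, adjusted p 3.4e-11). The other ring subunits differed by less, with log2 values of -1.10 for MCM2, -1.09 for MCM7, -1.06 (adjusted p 3.12e-09) for MCM4, -0.68 for MCM3 and -0.46 for MCM6. CDC6, which loads the ring together with CDT1, differed by -0.83 (adjusted p 1.69e-08) and ORC6 by -0.78. ORC1, the largest subunit of the origin recognition complex, went the other way, with 50.7, 48.6 and 48 CPM in SK-N-BE(2)-labelled controls and 38.5, 36.9 and 38 CPM in SK-N-AS-labelled controls, groups that do not overlap (log2 0.38, SE 0.0888, adjusted p 0.00173).

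Helicase activation held the member with the largest difference. GINS2 (chr16:85676198-85690073, GRCh38), a subunit of the GINS tetramer, stood at 17.9, 20.6 and 19.1 CPM in SK-N-BE(2)-labelled controls and 179, 174 and 189.5 CPM in SK-N-AS-labelled controls. All 3 libraries of the SK-N-BE(2) label were about an order of magnitude below those of the SK-N-AS label, 9.4-fold in the fit (log2 -3.23, SE 0.0757, adjusted p 6.73e-13). Its partner GINS1 stood at 63.9, 55.5 and 58.5 CPM in SK-N-BE(2)-labelled controls and 109, 102 and 106 CPM in SK-N-AS-labelled controls, also without overlap but 1.78-fold lower (log2 -0.83, SE 0.0643, adjusted p 4.56e-08). CDC45, which binds the ring with GINS, differed by -0.51 (adjusted p 8.08e-06), MCM10, which helps to fire the loaded helicase, by -0.31 (adjusted p 0.00142) and GINS3 by -0.32 (adjusted p 0.00674). GINS4 was the member of this role that was not called, at 0.19 (adjusted p 0.218).

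Because the subunits of a complex differed by unequal amounts, their proportions differed between the labels. Values per kilobase divide by the length of all exons annotated for a gene over all its transcripts, 7338 bases for MCM5 and 4118 for MCM6. On this measure GINS subunits ran from 4.83 (GINS4) to 14.6 (GINS1) CPM per kilobase in SK-N-BE(2)-labelled controls. In SK-N-AS-labelled controls they ran from 4.25 (GINS4) to 55.3 (GINS2) CPM per kilobase. GINS2 over GINS1 per length was 0.35, 0.463 and 0.406 in SK-N-BE(2)-labelled controls, against 2.04, 2.12 and 2.24 in SK-N-AS-labelled controls. In the MCM2-7 ring the highest subunit was MCM7 in every group, and the lowest was MCM5 under the SK-N-BE(2) label and MCM6 under the SK-N-AS label. MCM5 over MCM6 per length was 0.339, 0.368 and 0.385 in SK-N-BE(2)-labelled controls, against 1.12, 1.06 and 1.05 in SK-N-AS-labelled controls. With ML210 both ratios stayed on the side of their label: GINS2 over GINS1 was 0.413 to 0.428 under the SK-N-BE(2) label and 1.89 to 2.14 under the SK-N-AS label, and MCM5 over MCM6 was 0.344 to 0.422 under the SK-N-BE(2) label and 1.07 to 1.14 under the SK-N-AS label. These ratios are of mRNA and not of protein. Which transcripts were expressed was not tested, so the rank of a subunit and the size of a ratio depend on the length used. A change of a ratio between labels does not depend on that length.

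**Figure D2:**
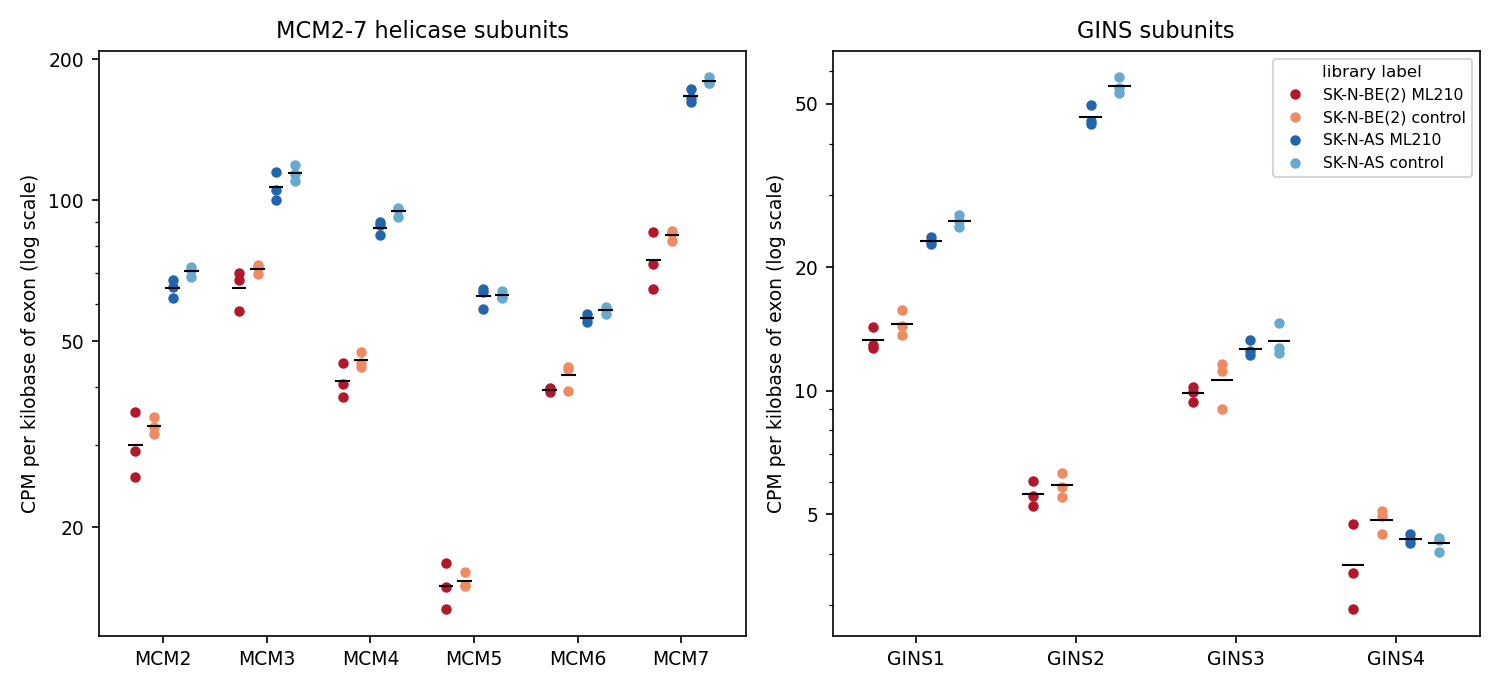
CPM per kilobase of exon (log scale) of the MCM2-7 and GINS subunits in each library, by line label and treatment, where points are libraries and lines the group means. GINS2 and MCM5 separate the line labels most, while the 4 groups overlap or nearly so for GINS4.

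At the replication fork, 8 of 13 genes were called lower under the SK-N-BE(2) label and FEN1 higher, with a median of -0.37. PCNA, the sliding clamp, stood at 211, 215 and 202 CPM in SK-N-BE(2)-labelled controls and 446, 437 and 493 CPM in SK-N-AS-labelled controls, and PRIM1, the catalytic primase subunit, at 18.2, 18.1 and 19.5 CPM in SK-N-BE(2)-labelled controls and 39.8, 40.4 and 42.4 CPM in SK-N-AS-labelled controls. Neither gene overlapped between the labels, and both were called lower under the SK-N-BE(2) label, 2.19-fold for PCNA (log2 -1.13, SE 0.0661, adjusted p 2.61e-09) and 2.2-fold for PRIM1 (log2 -1.14, SE 0.081, adjusted p 2e-08). POLE2, a subunit of the leading-strand polymerase, differed by -0.93 (adjusted p 5.45e-07) and POLA1, the catalytic subunit of polymerase alpha, by -0.60 (adjusted p 1.49e-06). Of the clamp loader, RFC3 (-0.71), RFC2 (-0.49) and RFC5 (-0.24) were called lower and RFC4 was not called, at -0.14 (adjusted p 0.151). POLA2 differed by -0.37 (adjusted p 0.00522), and 35.1% of its exon bases are shared with the gene AP000944.2 on the same strand, so its reads are uncertain. FEN1, the nuclease that trims Okazaki fragments, averaged 199 ± 9.51 CPM in SK-N-BE(2)-labelled controls and 154 ± 3.43 CPM in SK-N-AS-labelled controls (SD, n = 3 each; log2 0.37, SE 0.0631, adjusted p 0.000123). LIG1, the ligase that seals those fragments, was not called at 0.13 (adjusted p 0.209), nor were the polymerase subunits POLE at -0.13 (adjusted p 0.153) and POLD1 at -0.074 (adjusted p 0.431).

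Nucleotide supply was split. RRM2 (chr2:10120698-10131419, GRCh38), the S-phase subunit of ribonucleotide reductase, stood at 219, 188 and 190.3 CPM in SK-N-BE(2)-labelled controls and 503, 468 and 487 CPM in SK-N-AS-labelled controls. RRM1, the large subunit, stood at 271, 248 and 235 CPM in SK-N-BE(2)-labelled controls and 219.5, 211 and 217 CPM in SK-N-AS-labelled controls. RRM2 was thus 2.44-fold lower under the SK-N-BE(2) label (log2 -1.29, SE 0.0813, adjusted p 5.74e-09) and RRM1 1.17-fold higher (log2 0.22, SE 0.0541, adjusted p 0.00237), both without overlap of the groups. RRM2 over RRM1 per length was 0.634, 0.595 and 0.635 in SK-N-BE(2)-labelled controls, against 1.8, 1.74 and 1.76 in SK-N-AS-labelled controls. Neither TYMS, thymidylate synthase, at 0.17 (adjusted p 0.0976) nor TK1, thymidine kinase of the salvage route, at 0.019 (adjusted p 0.866) was called.

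E2F1, an activating E2F factor, stood at 76.6, 71.8 and 78.7 CPM in SK-N-BE(2)-labelled controls, against 257, 249.5 and 252 CPM in SK-N-AS-labelled controls. E2F2 stood at 33.9, 33.8 and 33.8 CPM in SK-N-BE(2)-labelled controls and 70.5, 70.3 and 71.7 CPM in SK-N-AS-labelled controls. Both were called lower under the SK-N-BE(2) label with no overlap, E2F1 3.34-fold (log2 -1.74, SE 0.0873, adjusted p 5.61e-10) and E2F2 2.09-fold (log2 -1.07, SE 0.0893, adjusted p 1.07e-07), as was UHRF1, which reads hemimethylated DNA behind the fork (log2 -0.81, adjusted p 2.43e-07).

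Of the 10 mitotic genes, 8 were called lower under the SK-N-BE(2) label, with a median of -0.70 over the role. AURKB, the kinase of the chromosomal passenger complex, stood at 32, 29.6 and 30.4 CPM in SK-N-BE(2)-labelled controls, against 124, 111 and 117 CPM in SK-N-AS-labelled controls. PLK1, a kinase of mitotic entry and spindle formation, stood at 201, 190.2 and 178 CPM in SK-N-BE(2)-labelled controls and 411, 401 and 393 CPM in SK-N-AS-labelled controls. AURKB was 3.82-fold lower under the SK-N-BE(2) label (log2 -1.93, SE 0.105, adjusted p 1.67e-09) and PLK1 2.12-fold (log2 -1.08, SE 0.0617, adjusted p 2e-09), again without overlap. BIRC5, which sits with AURKB in the passenger complex, averaged 303 ± 10.5 CPM in SK-N-BE(2)-labelled controls and 303 ± 28.1 CPM in SK-N-AS-labelled controls (SD, n = 3 each) and was not called (adjusted p 0.998). The difference was -0.68 (adjusted p 1.56e-07) for AURKA, the centrosomal Aurora kinase, -0.72 (adjusted p 2.58e-07) for cyclin B1 (CCNB1), -0.83 for TOP2A, -0.75 for MKI67, the antigen of proliferation stains, -0.32 for CDK1 and -0.22 for CCNA2. BUB1, a kinase of the spindle checkpoint, was the mitotic gene called higher, at 109 ± 5.06 CPM in SK-N-BE(2)-labelled controls and 85.5 ± 2.34 CPM in SK-N-AS-labelled controls (SD, n = 3 each; log2 0.35, SE 0.0572, adjusted p 9.16e-05).

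**Figure D3:**
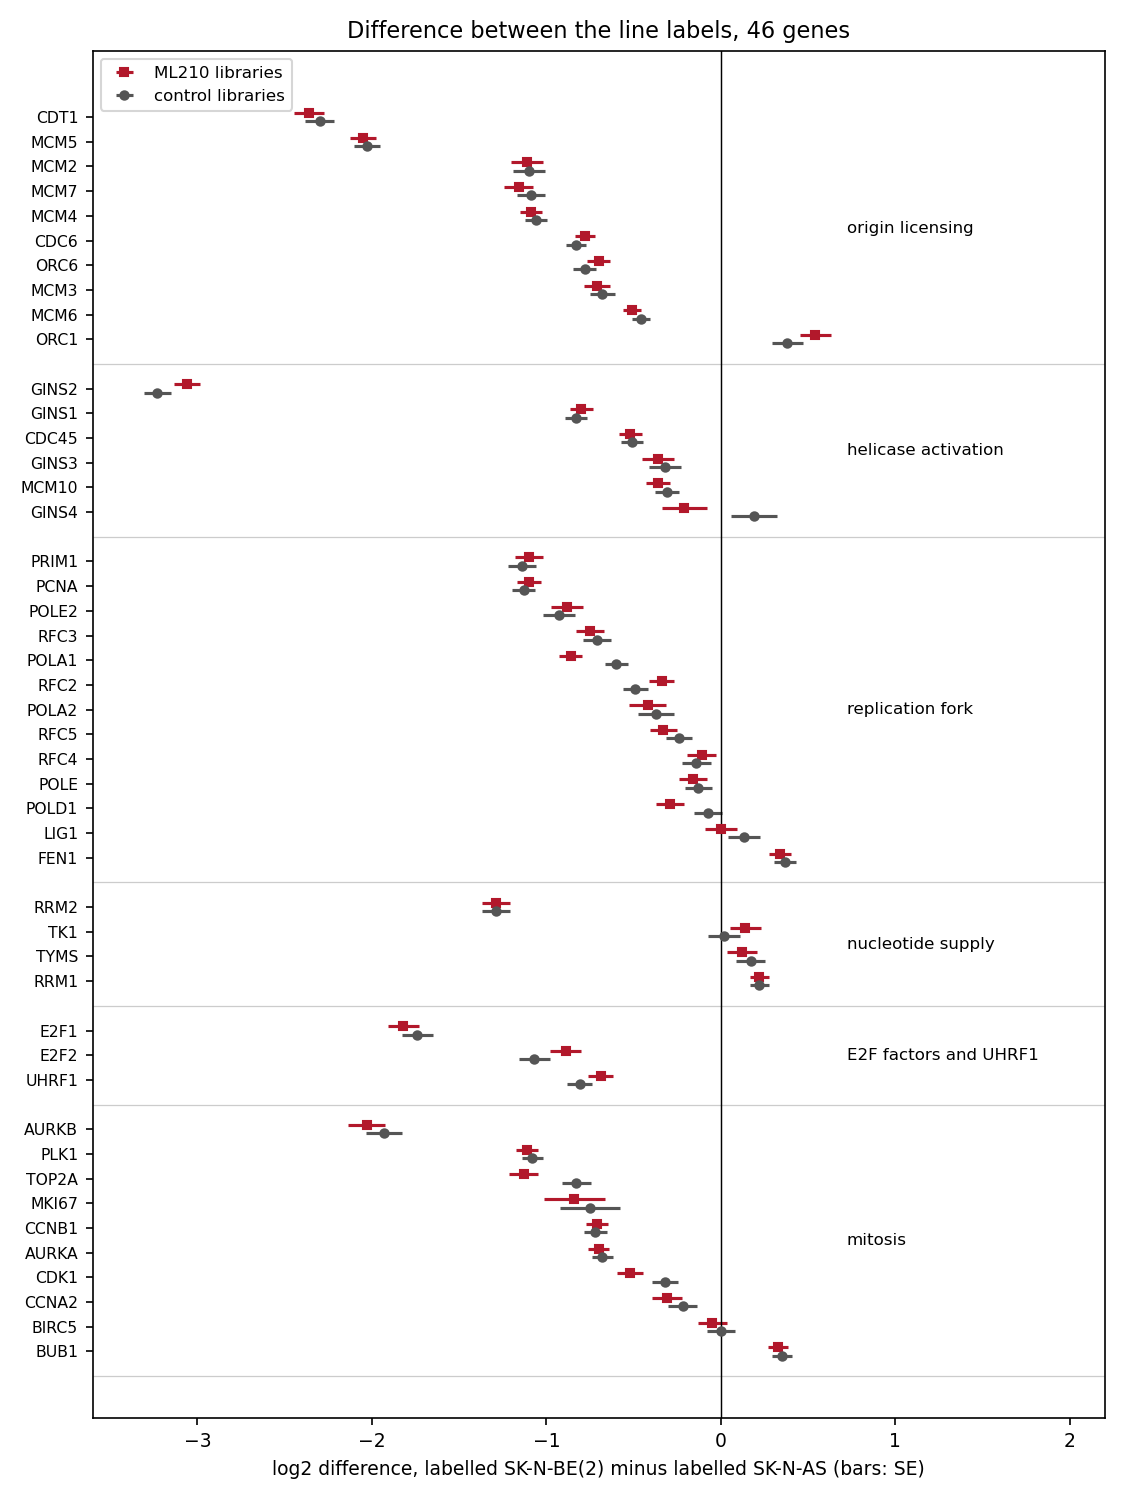
log2 difference of each gene between the line labels (positive where higher under the SK-N-BE(2) label), with its SE, in ML210 libraries (red squares) and in control libraries (grey circles), grouped by role. GINS2, CDT1, MCM5, AURKB and E2F1 lie farthest to the left, and ORC1, FEN1, BUB1 and RRM1 lie to the right of 0 in both.

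The same comparison in the ML210 libraries, which shares no library with the controls, gave 35 of 46 genes called lower under the SK-N-BE(2) label and 4 higher, beside 34.5% and 34.6% of all genes tested (69% in either direction), with a median of -0.70. Every library labelled SK-N-BE(2) lay below every library labelled SK-N-AS for 35 members (76.1%, against 36.4% of all genes) and above for 4 (8.70%, against 36.7%). The 4 higher genes were ORC1 (log2 0.54, adjusted p 9.51e-05), FEN1 (log2 0.34, adjusted p 0.00028), BUB1 (log2 0.33, adjusted p 0.000148) and RRM1 (log2 0.22, adjusted p 0.00285). By role, the smallest adjusted p were those of CDT1 (-2.36), MCM5 (-2.05), MCM4 (-1.09) and MCM7 (-1.16) in licensing, GINS2 (-3.06), GINS1 (-0.80), CDC45 (-0.52) and MCM10 (-0.36) in helicase activation, and PCNA (-1.10), PRIM1 (-1.10), POLA1 (-0.86) and POLE2 (-0.88) at the fork. In mitosis they were those of AURKB (-2.03), PLK1 (-1.11), TOP2A (-1.13) and AURKA (-0.70). E2F1 differed by -1.82, E2F2 by -0.89, UHRF1 by -0.69 and RRM2 by -1.29. The genes not called were POLE, RFC4, LIG1, GINS4, TYMS, TK1 and BIRC5.

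These directions depend partly on scaling. Scaled by library totals instead of TMM, the median of all genes between the controls moved to 0.243 from -0.0052 on the log2 scale, 28 members were called lower and 9 higher (69.6% of all genes in either direction), and CCNA2 (0.025) and RFC5 (0.0071) changed sign. Tested against a fold of 1.5, 22 members were called lower in the controls (21.3% of all genes) and 0 higher (21.5% of all genes), ORC1, FEN1, BUB1 and RRM1 among those that did not pass.

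Other genes of the same pathways showed a more mixed picture between the controls. Of 151 genes in 6 further lists, 93 (61.6%) were called lower under the SK-N-BE(2) label and 30 (19.9%) higher, with a median of -0.36. Of all genes tested, 35.2% were called lower and 33.9% higher, and the counts by list below stand beside these shares. Among 21 genes of the replication checkpoint and fork repair, 14 were lower and 3 higher, led by the checkpoint kinase CHEK1 (log2 -1.96, adjusted p 2.56e-11), the CDK1 inhibitory kinase PKMYT1 (-1.95), FANCA of the Fanconi pathway (-1.81) and ATRIP, the partner of ATR (-1.74). Of 50 other mitosis genes, 31 were lower and 3 higher, with CDC25A, the phosphatase that activates CDKs (-1.80), the ubiquitin-conjugating enzyme UBE2C (-1.36), cyclin B2 (CCNB2, -0.96) and securin (PTTG1, -0.79) in front. Of 20 other nucleotide genes, 14 were lower and 3 higher, among them thymidylate kinase DTYMK (log2 -1.85, adjusted p 2.71e-11), IMPDH1 of guanine nucleotide synthesis (-1.57), the nucleoside transporter SLC29A1 (-1.20) and the purine enzyme PAICS (-0.64). Of 25 other fork and chromatin assembly genes, 16 were lower and 8 higher, with CHTF18 of the alternative clamp loader at -1.68, POLE3 at -0.94, POLD3 at -0.94 and RPA2, which coats single-stranded DNA, at 0.70. Of 16 other origin and helicase genes, 11 were lower and 5 higher, with DONSON (-1.13), geminin (GMNN, -0.78) and the chromatin remodeller HELLS (-0.82) lower and MTBP, which acts in origin firing, higher (1.15). Of the 19 E2F, RB and DREAM regulators, 8 (42.1%) were higher and 7 (36.8%) lower, with a median of 0.15. These shares lie near those of all genes tested. The E2F partners TFDP2 (log2 0.95, adjusted p 1.31e-08) and TFDP1 (log2 0.87, adjusted p 1.57e-08) and the MuvB subunit LIN52 (0.82) were higher, and FOXM1 (-0.98) was lower.

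The remaining comparisons ask what overnight ML210 did to these genes. Nearly all had slightly lower values with ML210 under both labels, and few passed the test singly. Averaged over both labels, which uses all 12 libraries, 46 of 46 members had a negative log2 change against 51.0% of all genes tested, with a median of -0.15, and 8 were called lower and 0 higher, beside 0.532% and 0.699% of all genes tested (1.23% in either direction). Members' summed share of counted reads was 0.512%, 0.531% and 0.614% in SK-N-BE(2)-labelled ML210 libraries, against 0.646%, 0.631% and 0.619% in SK-N-BE(2)-labelled controls. It was 0.838%, 0.858% and 0.821% in SK-N-AS-labelled ML210 libraries, against 0.905%, 0.891% and 0.896% in SK-N-AS-labelled controls. Under both labels every ML210 library lay below every control, though the SK-N-BE(2)-labelled ML210 library of batch 3 lay close to its controls.

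Library by library, the members' median log2 CPM relative to the control mean of the same label was -0.274, -0.186 and -0.03 for SK-N-BE(2)-labelled ML210 batches 1, 2 and 3. It was -0.141, -0.11 and -0.19 for SK-N-AS-labelled ML210 batches, while the median of all genes tested lay between -0.024 and 0.007 in these 6 libraries. The SK-N-BE(2)-labelled ML210 library of batch 3 thus stood apart, with 30 of 46 members below the control mean, against 45 and 45 in batches 1 and 2. By role, that library was lowest in nucleotide supply (-0.147) and mitosis (-0.11) and was not lower in licensing (0.023) or in E2F1, E2F2 and UHRF1 (0.112). In its batch, 18 of 46 members were lower with ML210 than in the control, against 46 in batch 1 and 45 in batch 2. The SK-N-BE(2)-labelled control of batch 3 was itself on the low side. Its members' median was -0.046, with 37 of 46 below the control mean. In controls of batches 1 and 2 the medians were 0.045 and -0.002, with 11 and 24 members below. The part of this control in the count of 18 was not tested. Under the SK-N-AS label 43, 42 and 46 members were lower in batches 1, 2 and 3, though correlations did not bear out the pairing for some of these libraries. PTPRC, which makes up the blood list under the SK-N-BE(2) label, stood at 162, 191 and 289 CPM in SK-N-BE(2)-labelled ML210 libraries and 278, 263 and 329 CPM in SK-N-BE(2)-labelled controls, and its part in the result was not tested. Mitochondrially encoded transcripts took 2.27%, 2.73% and 2.02% of reads in SK-N-BE(2)-labelled ML210 libraries, against 2.15%, 1.94% and 2.27% in SK-N-BE(2)-labelled controls. They took 3.82%, 3.58% and 4.39% in SK-N-AS-labelled ML210 libraries, against 4.25%, 4.82% and 5.28% in SK-N-AS-labelled controls. This share was thus lower with ML210 in all 3 batches under the SK-N-AS label, and under the SK-N-BE(2) label higher in batches 1 and 2 and lower in batch 3.

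Of 67 genes on the marker lists, 1 was called with ML210, in the mean response and under the SK-N-BE(2) label. This count is near the shares of all genes tested that were called, 1.23% and 1.37%. The gene was PHOX2A, a transcription factor of the adrenergic list. It stood at 61.7, 85.8 and 92 CPM in SK-N-BE(2)-labelled ML210 libraries, against 117, 140 and 129.6 CPM in SK-N-BE(2)-labelled controls (log2 -0.69, adjusted p 0.017). It stood at 513, 505 and 498 CPM in SK-N-AS-labelled ML210 libraries, against 610.5, 613 and 604 CPM in SK-N-AS-labelled controls, and the change averaged over both labels was -0.48 (adjusted p 0.0189). The groups did not overlap under either label. The whole adrenergic list summed to 1270 to 1810 CPM in SK-N-BE(2)-labelled ML210 libraries and 1530 to 1960 CPM in SK-N-BE(2)-labelled controls, and to 8590 to 8740 CPM in SK-N-AS-labelled ML210 libraries and 9300 to 9830 CPM in SK-N-AS-labelled controls. The part of the mitochondrial share and of these markers in the changes of the members was not tested.

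**Figure D4:**
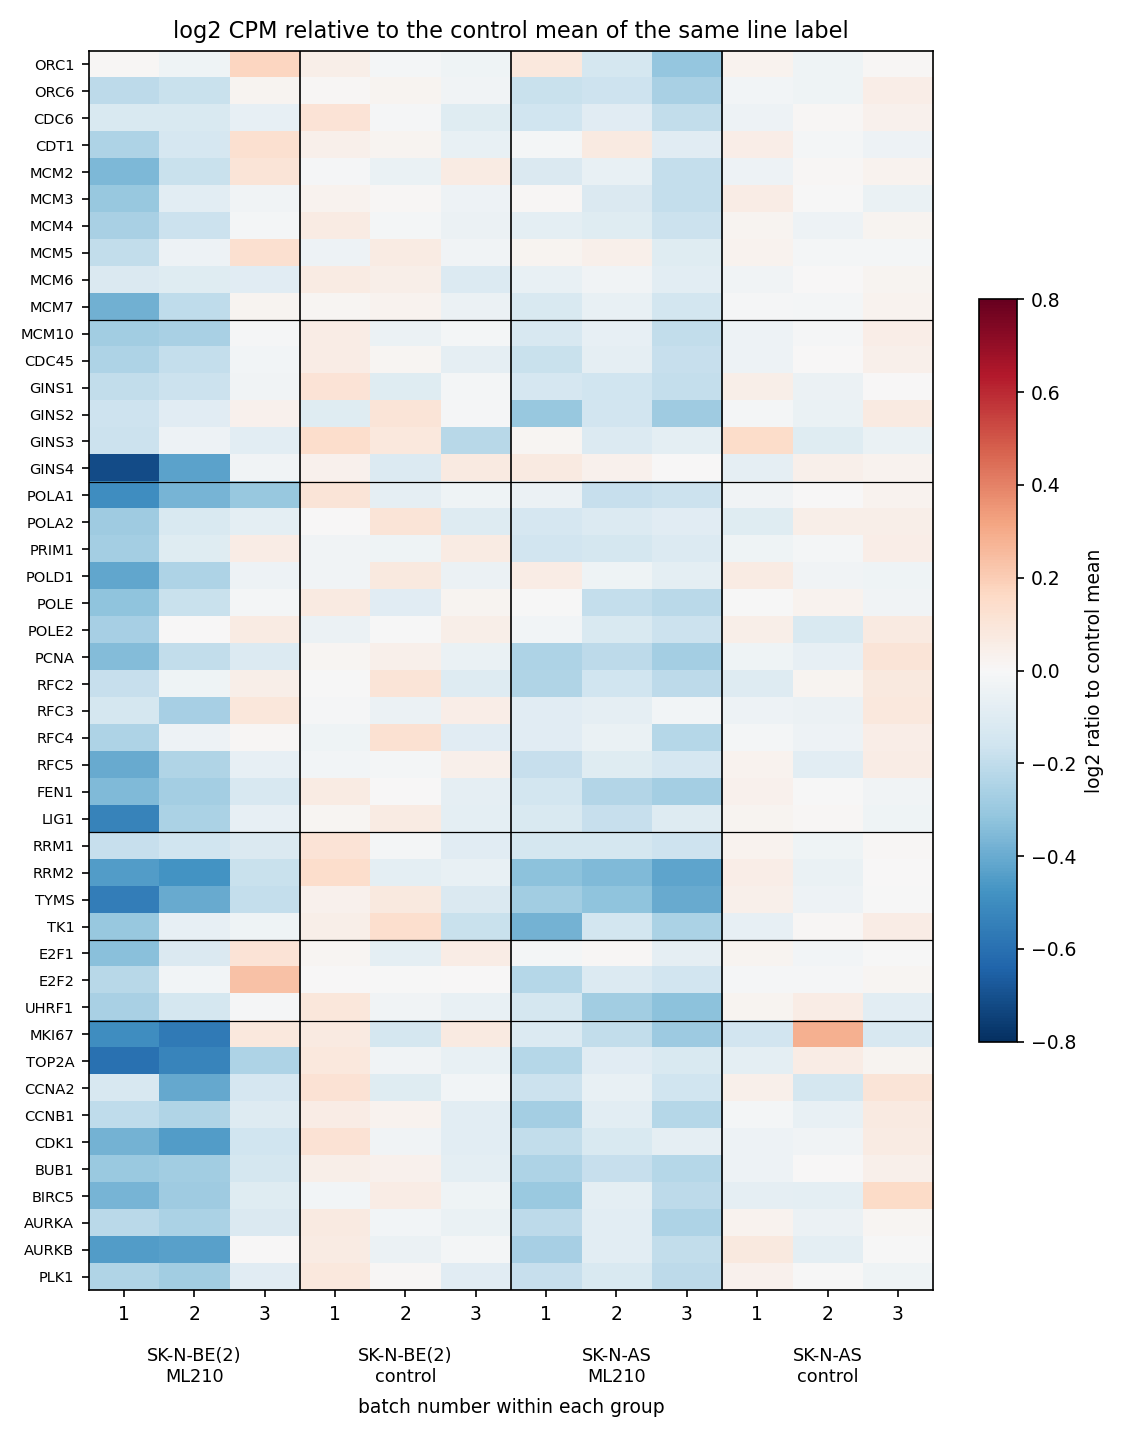
log2 CPM of each gene in each library relative to the control mean of the same line label, with genes in rows by role and libraries in columns by group and batch. ML210 columns are mostly on the lower side of the scale, and the SK-N-BE(2)-labelled ML210 column of batch 3 is the palest of the 6.

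Nucleotide supply had 2 of 4 genes called lower and a role median of -0.28. RRM2 stood at 145, 142 and 175 CPM in SK-N-BE(2)-labelled ML210 libraries, against 219, 188 and 190.3 CPM in SK-N-BE(2)-labelled controls, and at 386, 380.3 and 363 CPM in SK-N-AS-labelled ML210 libraries, against 503, 468 and 487 CPM in SK-N-AS-labelled controls. Every ML210 library was below every control of its label, and the mean change over both labels was 1.29-fold down (log2 -0.37, SE 0.0567, adjusted p 0.00904). TYMS (chr18:657604-673578, GRCh38) stood at 39.6, 44 and 51 CPM in SK-N-BE(2)-labelled ML210 libraries, against 59.5, 61.4 and 53.7 CPM in SK-N-BE(2)-labelled controls. Under the SK-N-AS label it stood at 42.8, 41.6 and 39.2 CPM with ML210 and 53.5, 50.5 and 51.8 CPM in controls, so that the groups were again separate under both labels (log2 -0.35, SE 0.0602, adjusted p 0.0156). ENOSF1 lies on the opposite strand and shares 967 exon bases with TYMS, 39.2% of its exons, and with the strand setting of counting not given, reads of the pair may be mixed. RRM1, at -0.15 (adjusted p 0.0738), and TK1, at -0.20 (adjusted p 0.155), did not pass. RRM2 over RRM1 per length was 0.516, 0.498 and 0.594 in SK-N-BE(2)-labelled ML210 libraries, against 0.634, 0.595 and 0.635 in SK-N-BE(2)-labelled controls, and 1.55, 1.53 and 1.48 in SK-N-AS-labelled ML210 libraries, against 1.8, 1.74 and 1.76 in SK-N-AS-labelled controls.

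At the fork, 3 of 13 genes were called lower in the mean response, with a role median of -0.14. POLA1 (chrX:24693919-24996986, GRCh38) stood at 56.8, 62 and 65 CPM in SK-N-BE(2)-labelled ML210 libraries, against 86.2, 76.4 and 78.3 CPM in SK-N-BE(2)-labelled controls, and at 118, 107 and 108 CPM in SK-N-AS-labelled ML210 libraries, against 119.5, 122 and 124 CPM in SK-N-AS-labelled controls. Groups were separate under both labels, widely so under the SK-N-BE(2) label and narrowly under the SK-N-AS label (log2 -0.26, SE 0.0459, adjusted p 0.0187). FEN1 averaged 167 ± 13.5 CPM in SK-N-BE(2)-labelled ML210 libraries and 199 ± 9.51 CPM in SK-N-BE(2)-labelled controls, and 132 ± 5.90 CPM in SK-N-AS-labelled ML210 libraries and 154 ± 3.43 CPM in SK-N-AS-labelled controls (SD, n = 3 each; log2 -0.23, SE 0.0446, adjusted p 0.0259). PCNA averaged 180.5 ± 14.9 CPM in SK-N-BE(2)-labelled ML210 libraries and 209 ± 6.56 CPM in SK-N-BE(2)-labelled controls, and 387 ± 8.88 CPM in SK-N-AS-labelled ML210 libraries and 459 ± 29.8 CPM in SK-N-AS-labelled controls (SD, n = 3 each; log2 -0.23, SE 0.0462, adjusted p 0.0315). RFC5 had the next smallest adjusted p of the fork genes, at -0.18 (adjusted p 0.116).

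Mitotic genes gave 3 calls of 10 in the mean response, with a role median of -0.23. BUB1 (chr2:110637698-110678114, GRCh38) stood at 88.5, 89.7 and 98.8 CPM in SK-N-BE(2)-labelled ML210 libraries, against 112, 111 and 103 CPM in SK-N-BE(2)-labelled controls, and at 72.1, 75.2 and 72.9 CPM in SK-N-AS-labelled ML210 libraries, against 83.2, 85.5 and 87.9 CPM in SK-N-AS-labelled controls. It did not overlap under either label (log2 -0.23, SE 0.0405, adjusted p 0.0187). TOP2A (chr17:40388516-40417950, GRCh38), the topoisomerase that untangles sister chromatids, stood at 287, 301 and 366 CPM in SK-N-BE(2)-labelled ML210 libraries, against 460.3, 425 and 417 CPM in SK-N-BE(2)-labelled controls. Its SK-N-AS-labelled values were 659, 723 and 708 CPM with ML210 and 729, 804 and 782 CPM in controls, closer together but still separate (log2 -0.30, SE 0.0581, adjusted p 0.0272). AURKA, the last of the 8, changed by -0.19 (adjusted p 0.049). PLK1 at -0.19 (adjusted p 0.0564), CDK1 at -0.23 (adjusted p 0.0577) and CCNB1 at -0.19 (adjusted p 0.0664) came next and did not pass. MKI67 varied widely among libraries, with 153, 146 and 229 CPM in SK-N-BE(2)-labelled ML210 libraries and 227, 196 and 227 CPM in SK-N-BE(2)-labelled controls, and 334, 314 and 295 CPM in SK-N-AS-labelled ML210 libraries and 325, 439 and 329.5 CPM in SK-N-AS-labelled controls, and did not pass (log2 -0.26, SE 0.122, adjusted p 0.387).

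**Figure D5:**
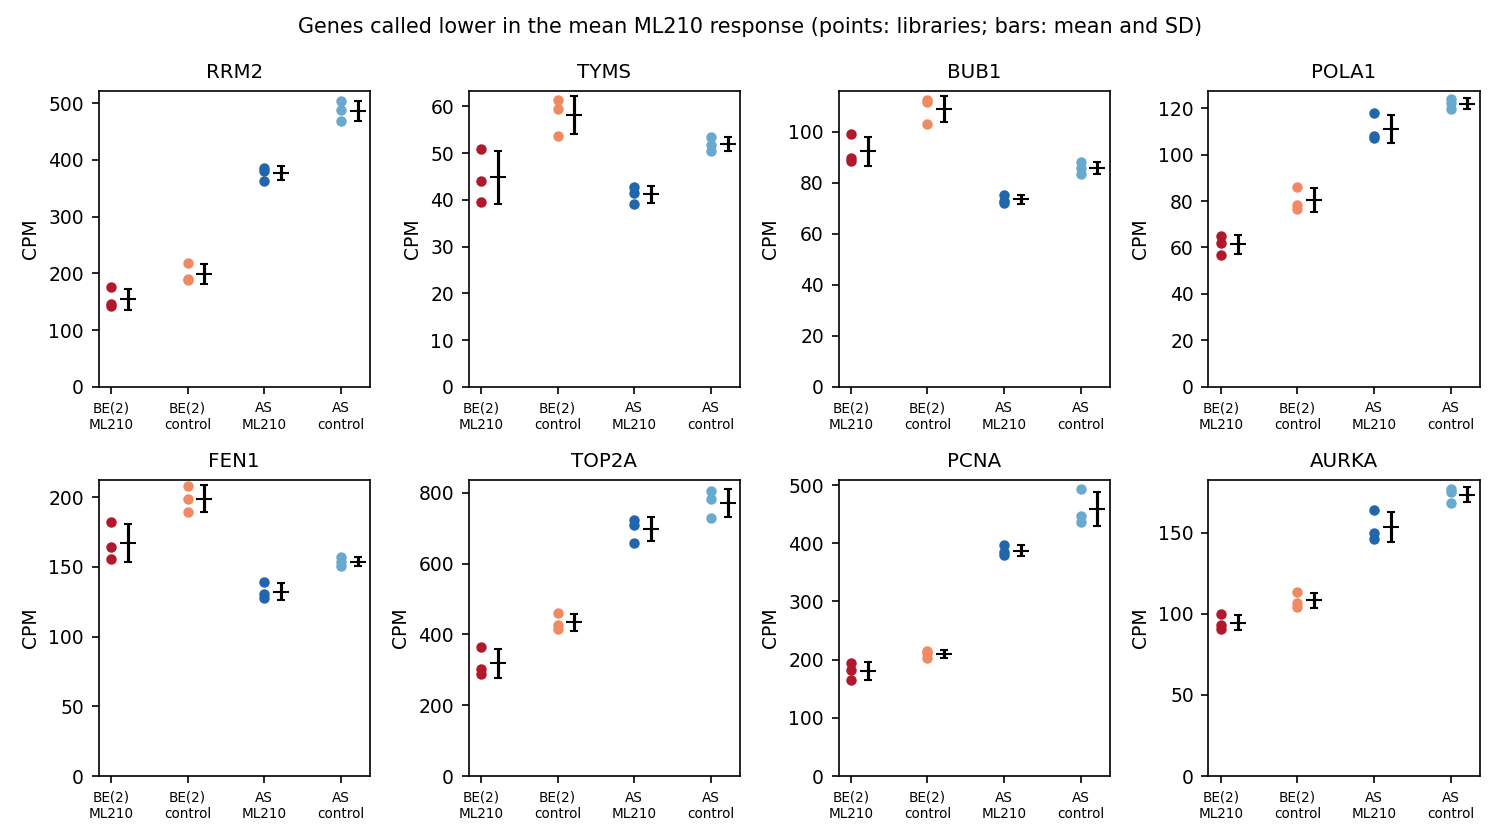
CPM in each library (points), with group mean and SD (bars), for the 8 genes called lower in the mean ML210 response. In every panel the ML210 libraries lie below the controls of the same label, by 1.14-fold (AURKA) to 1.29-fold (RRM2) in the mean response.

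The early steps gave no call in the mean response of the main edgeR fit (all libraries, no replicate block). Their changes were still negative in 10 of 10 licensing genes (median -0.12) and 6 of 6 helicase activation genes (median -0.15). These medians lie close to that of the fork genes (-0.14). Of the 20304 genes tested, 2854 had an unadjusted p under 0.05 in the mean response, and the counts by role below stand beside this. None of the 10 licensing genes was called in the mean response by edgeR, 6 having an unadjusted p under 0.05 and DESeq2 calling 0 of them. The smallest adjusted p were those of ORC6 (log2 -0.16, adjusted p 0.112), CDC6 (log2 -0.13, adjusted p 0.155), MCM4 (log2 -0.13, adjusted p 0.175) and MCM7 (log2 -0.14, adjusted p 0.253), and MCM5 (-0.021), ORC1 (-0.032) and CDT1 (-0.043) were closest to 0. In helicase activation edgeR and DESeq2 also called 0 of 6, with 4 under an unadjusted p of 0.05, and GINS1 (log2 -0.15, adjusted p 0.133), CDC45 (log2 -0.15, adjusted p 0.139), GINS2 (log2 -0.16, adjusted p 0.139) and MCM10 (log2 -0.15, adjusted p 0.158) came first. UHRF1 at -0.19 (adjusted p 0.0898), E2F2 at -0.075 and E2F1 at -0.064 were not called either in the main edgeR fit or by DESeq2, 1 of them (UHRF1) having an unadjusted p under 0.05. SK-N-BE(2)-labelled ML210 replicate 3 was the ML210 library whose members' median lay closest to its control mean (-0.03). Without that library, 4.78% of all genes were called in the mean response in either direction, against 1.23% with all libraries. That fit called 4 of 10 licensing genes lower, ORC6 (log2 -0.20, adjusted p 0.0149), MCM7 (log2 -0.20, adjusted p 0.0172), MCM2 and MCM4. It called 5 of 6 helicase activation genes lower, MCM10 (log2 -0.20, adjusted p 0.0112), CDC45 (log2 -0.19, adjusted p 0.0251), GINS4, GINS2 and GINS1. UHRF1 was then called too (log2 -0.23, adjusted p 0.0231). It was also called with the replicate block within each line label (log2 -0.19, adjusted p 0.0362), which called 6.11% of all genes in either direction.

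The count of 8 rests on the libraries and the design. Without SK-N-BE(2)-labelled ML210 replicate 3 it was 27 (4.78% of all genes called in either direction), and it dropped without each other library: to 3 and 1 without SK-N-BE(2)-labelled ML210 replicates 1 and 2, to 1, 3 and 6 without SK-N-BE(2)-labelled control replicates 1, 2 and 3, to 5, 1 and 2 without SK-N-AS-labelled ML210 replicates 1, 2 and 3, and to 5, 2 and 2 without SK-N-AS-labelled control replicates 1, 2 and 3. Calls over all genes dropped in these fits as well, to 63 to 144 genes, against 250 with all libraries. With the replicate block within each line label, 16 members were called lower (6.11% of all genes in either direction), among them all 8. That block takes the batch pairing as given, which correlations did not bear out for some SK-N-AS-labelled libraries. With the block shared by both line labels 8 were called (1.73% of all genes in either direction), 7 of them among the 8, since CDK1 passed (adjusted p 0.0485) and AURKA did not (adjusted p 0.057).

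Under the SK-N-BE(2) label alone, 4 members were called lower with ML210 and 0 higher, beside 0.557% and 0.818% of all genes tested (1.37% in either direction). These were POLA1 (log2 -0.39, SE 0.0652, adjusted p 0.0133), TOP2A (log2 -0.45, SE 0.0823, adjusted p 0.0195), RRM2 (log2 -0.37, SE 0.0803, adjusted p 0.0418) and TYMS (log2 -0.38, SE 0.0851, adjusted p 0.0483), whose values by library are given above. CDK1 (log2 -0.33, adjusted p 0.0523), BUB1 (log2 -0.24, adjusted p 0.0583) and FEN1 (log2 -0.25, adjusted p 0.0695) fell just outside the threshold. Of the other roles, MCM4 (log2 -0.15, adjusted p 0.313), GINS4 (log2 -0.37, adjusted p 0.205) and UHRF1 (log2 -0.13, adjusted p 0.466) had the smallest adjusted p. Negative changes were seen in 44 of 46 members, against 48.7% of all genes, with a median of -0.16, and E2F2 (0.011) and ORC1 (0.049) were the 2 above 0. Every ML210 library lay below every control for 14 of 46 members (30.4%), against 8.18% of all genes tested. GINS4 shows the pattern of batch 3, with 16.1, 19.7 and 25.9 CPM in SK-N-BE(2)-labelled ML210 libraries and 27.1, 24.5 and 27.8 CPM in SK-N-BE(2)-labelled controls.

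Without SK-N-BE(2)-labelled ML210 replicate 3, 22 members were called lower under that label (5.9% of all genes in either direction), including MKI67 (log2 -0.56, adjusted p 0.0146), AURKB (log2 -0.46, adjusted p 0.00273), MCM7 (log2 -0.31, adjusted p 0.0127) and GINS4 (log2 -0.59, adjusted p 0.00306). The count was 0 without ML210 replicate 1, ML210 replicate 2 or control replicate 1 of that label, 1 without its control replicate 2, and 2 without its control replicate 3 or when any single SK-N-AS-labelled library was left out. Calls over all genes, 279 with all libraries, dropped to 48 to 117 without 1 of these other SK-N-BE(2)-labelled libraries and to 176 to 255 without 1 SK-N-AS-labelled library. With the SK-N-BE(2)-labelled libraries fitted on their own, 0 members were called (0.278% of all genes in either direction). With the replicate block within each line label it was 9 (6.83% of all genes in either direction), which added BUB1, CDK1, FEN1, GINS4 and RFC5 to the 4. With the block shared by both line labels it was 4 (2.24% of all genes in either direction), with CDK1 (adjusted p 0.0407) in and TYMS (adjusted p 0.0546) out.

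Under the SK-N-AS label, 0 members were called in either direction by edgeR, beside 0.00493% of all genes called lower and 0.0246% higher (0.0296% in either direction), and DESeq2 also called 0. An unadjusted p under 0.05 was found for 18 of the 46 members, beside 1398 of the 20304 genes tested. The smallest adjusted p were those of RRM2 (log2 -0.37, SE 0.0801, adjusted p 0.328), TYMS (log2 -0.33, SE 0.0853, adjusted p 0.425), BUB1 (log2 -0.22, SE 0.0573, adjusted p 0.425) and PCNA (log2 -0.24, SE 0.0652, adjusted p 0.45). By role, GINS2 (log2 -0.25, adjusted p 0.462), UHRF1 (log2 -0.25, adjusted p 0.497) and ORC6 (log2 -0.20, adjusted p 0.56) led the others. Changes were negative in 45 of 46 members, GINS4 (0.035) being the exception, against 52% of all genes, with a median of -0.14. Every ML210 library lay below every control for 32 of 46 members (69.6%), against 8.86% of all genes tested. When the SK-N-AS-labelled libraries were fitted on their own, RRM2 was called lower (log2 -0.36, adjusted p 0.0274, beside 0.116% of all genes in either direction).

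The groups were separate under both labels, ML210 below control, for 13 members (28.3%, against 1.79% of all genes tested), which is 92.9% of the 14 under the SK-N-BE(2) label and 40.6% of the 32 under the SK-N-AS label. They were POLA1, PCNA, RFC5, FEN1, RRM1, RRM2, TYMS, TOP2A, CCNB1, CDK1, BUB1, BIRC5 and AURKA, none of them a licensing or helicase activation gene. In all 3 batch pairs of both labels, 16 members (34.8%) were lower with ML210, against 6.11% of all genes tested. These pairs follow the batch numbers, and correlations did not bear out that pairing for some SK-N-AS-labelled libraries.

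Whether the labels responded differently was tested directly. In the difference of the responses, SK-N-BE(2) label minus SK-N-AS label, 0 of 46 members were called in either direction by edgeR, beside 0.00493% of all genes called lower, 0% higher and 0.00493% in either direction, and DESeq2 also called 0. An unadjusted p under 0.05 was found for 3 of the 46 members, beside 1454 of the 20304 genes tested. The differences ran from -0.40 (GINS4) to 0.18 (GINS2) with a median of -0.03 and a median SE of 0.11. Even the largest of them did not pass, so this fit could not tell differences of that size between the labels from no difference. The smallest adjusted p were those of POLA1 (log2 -0.26, adjusted p 0.618) and TOP2A (log2 -0.30, adjusted p 0.621). Without SK-N-BE(2)-labelled ML210 replicate 3, GINS4 (log2 -0.63, adjusted p 0.0426) and TOP2A (log2 -0.45, adjusted p 0.0415) were called, beside 0.741% of all genes.

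Among the 151 other pathway genes, 10 (6.62%) were called lower and 0 higher in the mean ML210 response, beside 0.532% and 0.699% of all genes tested. Their median was -0.15, and 140 (92.7%) were negative, against 51.0% of all genes tested. Mitosis genes held 7 of the 10: the chromokinesin KIF4A (log2 -0.20, adjusted p 0.025), the kinesin KIF20A (log2 -0.21, adjusted p 0.0277), ZWINT (-0.24) and NDC80 (-0.26) of the kinetochore, and CCNF, NEK2 and TPX2. With the replicate block shared by both line labels, NDC80, NEK2, CCNF and TPX2 did not pass (adjusted p 0.0507, 0.0513, 0.0525 and 0.0599). All 50 genes of that list were negative, with a median of -0.20. HELLS (log2 -0.30, adjusted p 0.0273) and DONSON (log2 -0.26, adjusted p 0.0498) were called among the origin and helicase genes, and TIMELESS, which holds polymerase and helicase together (log2 -0.17, adjusted p 0.0455), among the fork genes. In the nucleotide, E2F, RB and DREAM, and checkpoint lists edgeR called 0. Of their 20, 19 and 21 genes, 5, 6 and 10 had an unadjusted p under 0.05, beside 2854 of the 20304 genes tested. In these lists DESeq2 called 1, 1 and 4 genes lower. DESeq2 called 4.59% of all genes in either direction.

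Under the SK-N-BE(2) label 6 of the 151 (3.97%) were called lower and 0 higher, beside 0.557% and 0.818% of all genes tested. The 6 were HELLS (log2 -0.44, SE 0.083, adjusted p 0.0222), the centrosomal kinase NEK2 (log2 -0.28, adjusted p 0.0277), the spindle kinesin KIF11 (log2 -0.37, adjusted p 0.0342), KIF4A (log2 -0.25, adjusted p 0.0384), KIF20A (log2 -0.27, adjusted p 0.0418) and ECT2, which acts in cytokinesis (log2 -0.38, adjusted p 0.048). Of the 50 other mitosis genes, 49 were negative with a median of -0.26, and their median by library was -0.289, -0.33 and -0.106 in ML210 batches 1, 2 and 3. Under the SK-N-AS label edgeR and DESeq2 called 0 of the 151, beside 0.0296% and 0.278% of all genes in either direction. Of the 151, 30 had an unadjusted p under 0.05, beside 1398 of the 20304 genes tested. The median of the mitosis genes was -0.13. Without SK-N-BE(2)-labelled ML210 replicate 3, 33 of the 50 other mitosis genes were called lower under the SK-N-BE(2) label and 37 in the mean response, and in the difference of the responses 0 of them. That fit called 5.9%, 4.78% and 0.741% of all genes in either direction. With the replicate block within each line label the first 2 counts were 30 and 35 (6.83% and 6.11% of all genes). With DESeq2 they were 20 and 29 (4.28% and 4.59% of all genes). Without any other single library they were 0 to 3 under the SK-N-BE(2) label (0.228% to 1.21% of all genes). In the mean response they were then 0 to 2 (0.299% to 0.684% of all genes).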

How the data were processed

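The 12 libraries were stranded mRNA libraries sequenced on a NovaSeq, per the labels' protocols. The deposited values are raw read counts per gene, made by the authors with FastQC, Trimmomatic 1.4, HISAT2 2.2.1 and featureCounts 2.0.5 on GRCh38, per the submitters' processing notes. No source used here gives the annotation, the strand setting, the handling of reads with several matches, or the unit counted (read or pair). Of 61552 Ensembl identifiers, 61399 were named from a table of gene names and 145 from GENCODE 29, which also gave positions and exon lengths. No 2 libraries held identical values.

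The 46 members and the other pathway lists were chosen with earlier results of these data known. Counts were fitted with edgeR 4.0.16 in R 4.3.3 (quasi-likelihood, robust, two-sided), with TMM scaling, a filter on low counts by group and 1 coefficient per group over all 12 libraries (8 residual degrees of freedom). The 6 comparisons were the ML210 response under each label, their difference, their mean, and the label difference in ML210 libraries and in controls. Genes were called at a Benjamini-Hochberg adjusted p under 0.05 over the 20304 genes tested. CPM values are TMM-scaled, and the fit's dispersion was 0.0223. Named were up to 4 genes per role or list with the smallest adjusted p in each comparison, with values by library for 2 per role between controls and for 4 in the mean response. Members needed to account for all 46 were named besides, and FEN1, PCNA, TOP2A, MKI67, GINS4 and ORC1 were given further values after their values were seen.

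Alternatives were RLE scaling, library totals, DESeq2 1.42.0, no filter, at least 10 reads in every library, only the groups compared, replicate blocks, a test against a fold of 1.5 (glmTreat) and leaving out each library, and their use on the other pathway lists was chosen after seeing the data. The labels give each library a batch number, which pairs ML210 and control libraries. Deviations from the group means correlated at 0.096, 0.12 and 0.169 between same-batch libraries labelled SK-N-BE(2), and at 0.357, 0.068 and 0.121 labelled SK-N-AS. Between libraries of unlike batch they correlated at -0.1 to -0.007 labelled SK-N-BE(2) and at -0.269 to 0.189 labelled SK-N-AS. Under the SK-N-AS label, ML210 batch 2 correlated more with control batch 3 (0.125) than with control batch 2 (0.068). ML210 batch 3 likewise correlated more with control batch 2 (0.189) than with control batch 3 (0.121). The pairing is thus not borne out for these SK-N-AS-labelled libraries. Across labels, same-batch libraries correlated at -0.082 to -0.003. Apart from the batch number, no label states that a group's libraries are of separate cultures. The p-values then reflect only the spread among these libraries, which may be technical.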

Additional observations from a re-analysis of the deposited data

How the results depend on the processing

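Between the line labels, the counts of members kept within 1.5 times of those reported under RLE scaling, DESeq2, both filters and the shared replicate block. Against a fold of 1.5, 22 members were called lower and 0 higher in controls, and 23 lower and 0 higher in ML210 libraries. In controls, library totals gave 9 higher and reversed CCNA2 (0.025) and RFC5 (0.0071), and only the groups compared gave 7 higher. For the ML210 response under the SK-N-BE(2) label, members called lower numbered 7 with DESeq2, 2 with RLE scaling, 8 with no filter, 9 with the replicate block within each line label, 0 with only the groups compared and 0 against a fold of 1.5. Over all genes the calls were 279 as reported, and 753, 248, 556, 1386, 51 and 0 under those settings. For the mean response they numbered 13 with DESeq2, 13 with no filter, 16 with the replicate block within each line label and 0 against a fold of 1.5, beside 775, 531, 1240 and 1 over all genes, against 250. Under the SK-N-AS label, no filter and only the groups compared each gave 1, beside 33 and 21 over all genes, against 6. The cause of these changes was not tested. The replicate blocks moved no other count of members by over 1.5 times.

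Leaving out each library in turn gave 0 to 22 members lower under the SK-N-BE(2) label, 1 to 27 in the mean response, 0 to 2 in the difference of the responses and 0 to 0 under the SK-N-AS label. It gave 32 to 34 lower and 4 to 6 higher in controls, and 35 to 37 lower and 4 to 6 higher in ML210 libraries. Only the groups compared gives no value for the difference and the mean, and the block within each line label none between labels. The mRNA counts do not measure how many cells were dividing.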
